A study of Drosophila melanogaster with 43 samples.

Results

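The genes described here encode the core machinery that releases synaptic vesicles in Drosophila. They are 10 genes chosen by name: Syt1, Syx1A, Snap25, n-syb, brp, Rim, cpx, Rop, comt and shi. All 10 were found among 14410 gene features with a value in each of 8 fly head libraries, and all 10 were found among 13792 genes of 4 S2 cell libraries. S2 cells are an embryonic Drosophila culture line that resembles macrophage-like blood cells. The study is about Orb and Orb2, fly members of the CPEB family, RNA-binding proteins that regulate translation of their target mRNAs.

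The head extracts came from flies labelled Orb2 WT-GFP (credited in the labels to Kruttner et al.), kept on semi-defined medium at 25 °C. Age, sex and the number of flies per extract were not given in the labels. Both fractions carried the same genotype, so no library without the tagged allele entered the comparison. Each extract was treated with biotinylated isoxazole (b-isox), a small molecule that brings down low-complexity proteins and the RNA bound to them, and the pellet and the supernatant were sequenced. Replicates 1 to 4 of each fraction carried gene names, while replicates 5 and 6 held assembled loci without names. The S2 libraries comprised 2 of background cells, which the design text calls untransfected, and 2 of cells overexpressing Orb2B, a form of Orb2. All S2 cells were grown at 27 °C with copper sulfate at 250 µM, and hygromycin B (300 µg/ml) was given to Orb2B cells only, so the drug and the transgene cannot be told apart. The promoter, and whether the Orb2B cells were a single clone, are not stated in the labels. Nothing in the labels says that replicates came from separate flies or cultures, so the p-values below rest on a spread between libraries that may be technical.

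Synaptic vesicles fuse when a vesicle SNARE protein (n-syb, neuronal synaptobrevin) zips together with target-membrane SNAREs (Syx1A, a syntaxin, and Snap25). Rop, a Sec1/Munc18 protein, binds the syntaxin, complexin (cpx) clamps the assembled SNAREs, and synaptotagmin (Syt1) senses the calcium that triggers fusion. Bruchpilot (brp) and Rim are scaffolds of the active zone, the presynaptic site where vesicles dock. After fusion the NSF ATPase encoded by comatose (comt) takes the SNARE complexes apart, and the dynamin encoded by shibire (shi) pinches new vesicles from the membrane. The genes comt and shi were both named for temperature-sensitive paralytic flies.

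Facts of the libraries come first. Head values are FPKM (fragments normalised for gene length and library size), divided by a library factor of 0.665 to 0.737 in supernatants and 1.27 to 1.65 in pellets, and are called scaled FPKM. S2 values are RPKM, which is also a per-length unit. Read depth cannot be known from these units. The head files give a lower and an upper bound for each FPKM at an unstated level, and no counting interval was computed for the S2 values. The head libraries had 7357 to 8980 named features at 1 FPKM or more, and the S2 libraries 6670 to 7129 genes at 1 RPKM or more. The summed level of 8 neuron markers was 1775 to 3033 scaled FPKM in supernatants and 3223 to 5683 in pellets, and none of them was at 0. In S2 cells the same markers summed to 5.21 to 6.91 scaled RPKM, nearly all of it from elav, whereas 8 blood cell markers summed to 111 to 224. The orb2 transcript was at 7.5 and 8.73 RPKM in background libraries and at 2509 and 2850 in Orb2B libraries.

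Among the 10 release genes, Syt1 was higher in the b-isox pellet of fly heads, and it was the only member called in limma (adjusted p under 0.05, Benjamini-Hochberg over 8608 tested features). The call rate over all features was 2.02% higher and 1.81% lower. In 3 members, Syt1, Rim and shi, every pellet library lay above every supernatant library, and this held for 8.1% of all tested features. No member had every pellet library below every supernatant library, against 8.0% of all features. The median log2 difference of the 10 members was 0.57, beside -0.020 over all features tested, and 6 of the 10 were above 0. With the replicate number as a block, 2 members, Syt1 and Rim, were called higher, against 7.02% of all features.

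**Figure D1:**
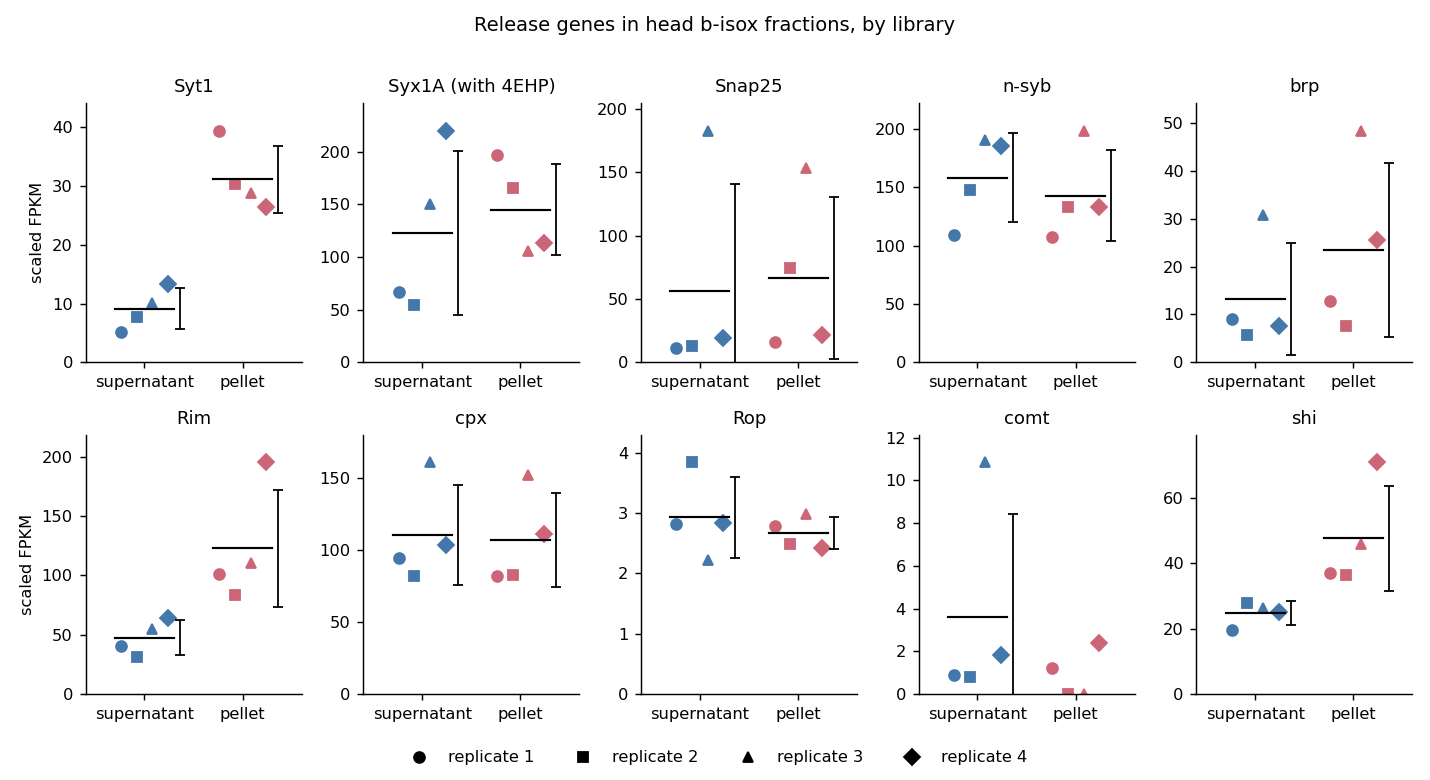
Scaled FPKM (vertical axes, linear from 0) of the 10 release genes in 4 supernatant and 4 pellet libraries of fly heads; symbols are replicates, black lines group means and bars the SD (cut at 0), left out for the comt pellet, where replicates 2 and 3 are listed at 0. In Syt1, Rim and shi every pellet library lies above every supernatant library, and in Snap25, brp, cpx and n-syb replicate 3 is the highest of both fractions.

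Syt1, the calcium sensor of the vesicle, lies on chromosome arm 2L, at chr2L:2772228-2800034 of build dm3 at its widest. Its supernatant values were 5.21, 7.73, 10.1 and 13.4 scaled FPKM in replicates 1 to 4, and its pellet values were 39.4, 30.3, 28.8 and 26.4. Every pellet was above every supernatant, and the gap between the groups exceeded the range within the supernatants. The means were 9.11 ± 3.49 and 31.2 ± 5.70 (SD, n = 4 each). The log2 difference was 1.78 (SE 0.28, limma adjusted p = 0.0144), a 3.44-fold higher level in the pellet, and the adjusted p was 0.0359 with the replicate block. Leaving out each library in turn gave log2 differences of 1.56 to 1.99, with adjusted p of 0.0190 to 0.0494. The deposited interval of the pellet 4 estimate ran from 0 to 83.7 FPKM around 33.5, whereas the intervals of the other 7 libraries had half-widths of 3.18% to 6.38% of the estimate. The entry did not have the same borders in every library: in supernatant 2 and pellet 4 it began at position 2779184, without the low-coordinate end.

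A separate, unnamed assembled locus of 315 to 414 bp lay on that end segment. Its deposited level was 426, 310, 646 and 307 FPKM in supernatants 1 to 4, and 1387 and 1334 FPKM in pellets 3 and 4. In pellets 1 and 2 no such separate locus was listed. In the same libraries the named Syt1 entry was 31.0 to 112 times lower than this short locus. In supernatants 1, 3 and 4 and in pellet 3 the named entry reached over the same segment, and neither the strand of the entries nor the division of reads between them was given. What part this has in the Syt1 difference was not tested. The gene CR43821 lies inside the Syt1 locus and had an entry of its own in all 8 libraries.

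Rim, an active zone scaffold that tethers vesicles and calcium channels, followed. Supernatants 1 to 4 held 40.0, 31.1, 54.3 and 64.3 scaled FPKM, and pellets 1 to 4 held 101, 83.8, 110 and 195. Pellet 4 was the highest and the groups did not overlap. The means were 47.5 ± 14.8 and 123 ± 49.6 (SD, n = 4 each), with a log2 difference of 1.34 (SE 0.32, limma adjusted p = 0.0619). The replicate block brought the adjusted p to 0.0152, and a minimum mean of 5 brought it to 0.0467, so the call turned on these choices. The genes CG12347 and CG43445 lie within the Rim locus (chr3R:13698331-13742300, dm3) and were listed separately.

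Brp, the scaffold that builds the active zone's dense projection, was more variable. It lies at chr2R:5391293-5429216 (dm3). Its supernatants were at 9.0, 5.78, 30.7 and 7.63 scaled FPKM and its pellets at 12.8, 7.55, 48.3 and 25.5. The pellet was higher in 4 of 4 replicate pairs, but the fractions overlapped, and replicate 3 was the highest library of each. The log2 difference of 0.79 (SE 0.67) did not pass the test (limma adjusted p = 0.513, and 0.105 with the block).

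The dynamin gene shi, on the X chromosome (chrX:15786149-15800750, dm3), had supernatants of 19.5, 27.8, 26.4 and 25.2 scaled FPKM and pellets of 37.0, 36.5, 46.0 and 70.9. All pellets were above all supernatants. Its means were 24.7 ± 3.68 and 47.6 ± 16.1 (SD, n = 4 each), with a log2 difference of 0.89 (SE 0.24, limma adjusted p = 0.0893), which the block moved to 0.0505. It passed the test only with the values as deposited and with replicates 5 and 6 added (log2 difference 1.2, adjusted p = 0.00322 over 2748 features). In replicates 5 and 6 shi was matched at 50% overlap of loci and not at 80%.

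The 3 SNARE genes did not pass the test, and their estimates differed in sign after scaling, though n-syb too was above 0 without scaling. n-syb had the highest supernatant mean of the 10 genes. Its supernatants were at 109, 147, 191 and 185 scaled FPKM and its pellets at 107, 133, 198 and 133. The fractions overlapped throughout, and the log2 difference was -0.15 (SE 0.25, limma adjusted p = 0.760). The n-syb locus (chr3L:1630339-1637752, dm3) held no other entry in any of the 8 libraries.

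Syx1A was always reported in 1 entry together with 4EHP, the gene of a cap-binding translational repressor, so the value is a sum over both genes. This joint entry (chr3R:19889308-19934671, dm3) had supernatants of 66.8, 54.1, 150 and 220 scaled FPKM and pellets of 197, 165, 106 and 113. In replicates 1 and 2 the pellet was higher, and in replicates 3 and 4 the supernatant was higher. The log2 difference was 0.42 (SE 0.46, limma adjusted p = 0.617). S2 cells, where the genes were counted apart, show what such a sum can hold: background replicate 1 had 41.0 RPKM of Syx1A and 15.9 RPKM of 4EHP. The gene CG10694 lies inside the joint locus and had its own entry. Unnamed loci of 2232 to 3164 bp near its low-coordinate end held 144 and 150 FPKM in supernatants 3 and 4. In pellets 3 and 4 they held 388 and 371 FPKM. The joint entry there was at 102, 162, 134 and 144 FPKM as deposited. Pellet 1 listed loci of 3006 and 2408 bp at 221 and 159 FPKM, and pellet 2 none there. In supernatants 1 and 2 they were shorter, at 99.3 to 154 FPKM. Their part in the direction was not tested.

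Snap25 was the least steady member. The supernatants were at 11.1, 13.3, 183 and 19.2 scaled FPKM and the pellets at 16.2, 74.9, 153 and 21.9. Within the supernatants the highest library was 16.4 times the lowest, and within the pellets 9.45 times. The deposited intervals were narrow beside that, with half-widths of 3.32% to 6.83% of the estimate. Its log2 difference was 0.73 (SE 1.03, limma adjusted p = 0.709), and without supernatant 3 it was 1.64 (adjusted p = 0.227). Snap25 also had the longest locus of the 10, 225 kb (chr3L:24067329-24292305, dm3). Between 3 and 38 unnamed assembled entries lay inside it, the fewest in supernatant 3 and pellet 3, where the named entry was highest.

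The SNARE-binding proteins showed no difference that passed the test. Complexin had supernatants of 94.2, 82.2, 161 and 104 scaled FPKM and pellets of 82.0, 83.0, 152 and 111. Replicate 3 was again the highest in both fractions, and the log2 difference was -0.042 (SE 0.28, limma adjusted p = 0.946). The locus (chr3R:105906-130349, dm3) also held entries for CG9780 and mir-929. Unnamed loci lay in it too, of 224 bp at 769 FPKM in supernatant 2 and of 235 bp at 1304 FPKM in supernatant 4. The named cpx entry held 54.7 and 76.3 FPKM there as deposited. Pellet 4 listed a locus of 100 bp at 37810 FPKM, with deposited bounds of 16837 and 58783. Rop (chr3L:4136359-4138996, dm3) was low, with supernatants of 2.82, 3.84, 2.22 and 2.84 scaled FPKM and pellets of 2.78, 2.49, 2.98 and 2.42. The fractions overlapped (log2 difference -0.10, SE 0.19, limma adjusted p = 0.793).

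The NSF gene comt (chrX:13153013-13156534, dm3) had the most broken record. Supernatants were at 0.897, 0.808, 10.8 and 1.82 scaled FPKM. Pellets 1 and 4 were at 1.21 and 2.40, and comt was listed at 0 in pellets 2 and 3. In exactly these 2 libraries the entry of the neighbouring gene HDAC4, a histone deacetylase gene, began at position 13156423 on the X chromosome (dm3) and overlapped the comt locus by 99 bp. In the other 6 libraries HDAC4 began at 13156720, beyond the end of comt. The fitted log2 difference of -1.32 (SE 0.85, limma adjusted p = 0.390) was -0.24 with exact 0 taken as missing, so most of it lay in those entries.

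**Figure D2:**
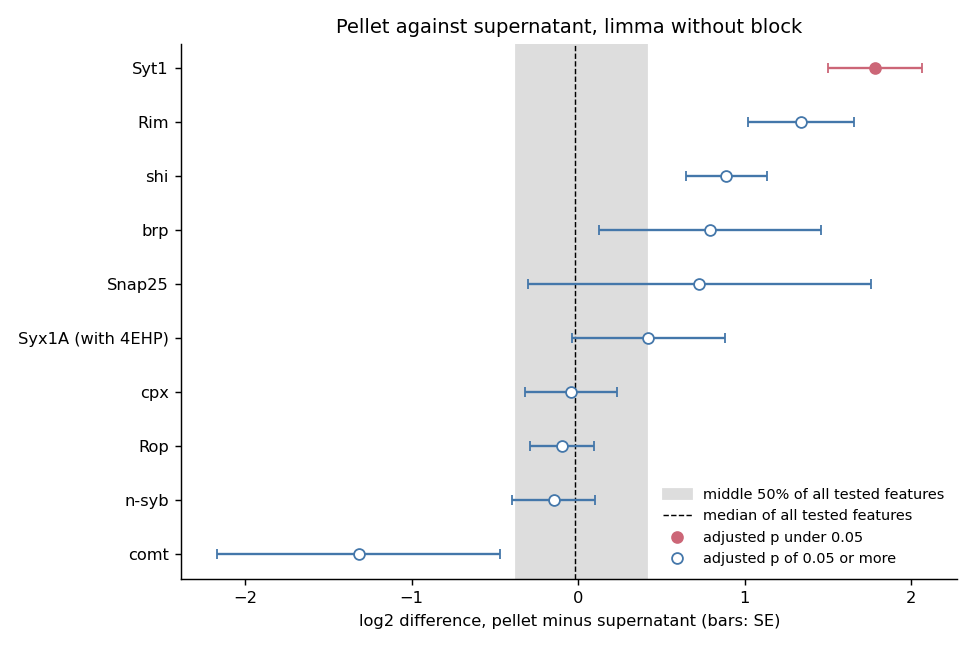
Log2 difference between pellet and supernatant (horizontal axis) for each of the 10 release genes, with bars of 1 SE from limma without a block; the grey band is the middle 50% of all tested features and the dashed line their median. Syt1 (1.78) is the only filled point, at an adjusted p under 0.05; cpx, Rop and n-syb lie inside the band and comt lies to its left.

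Several values moved with the fraction beside these genes. All 8 neuron markers had estimates above 0, from 0.48 to 1.70 on the log2 scale, and 1 of them, elav, was called higher (log2 difference 1.02, SE 0.18, limma adjusted p = 0.0218). With the block 7 of the 8 were called higher, beside 7.02% of all tested features. The fat body marker Yp1, a yolk protein gene, was called lower (log2 difference -0.98, adjusted p = 0.00379), and 0 of 6 tested fat body markers had an estimate above 0. Of these, Lsp2 was at -0.0038. The marker Fbp1 was under the minimum mean and not tested, and went the other way, with means of 0.231 scaled FPKM in supernatants and 1.74 in pellets. No tested marker of glia (8), photoreceptors (7), muscle (7) or blood cells (5) was called in limma, and 3 glia markers were higher at an unadjusted p under 0.05. With the block 1 of the 8 glia markers, Gs2, was called higher (block adjusted p = 0.0320). Locus length moved with the fraction as well: the 25% of features with the longest loci, above 6.63 kb, had a median log2 difference of 0.44, and the 25% with the shortest loci of -0.17. Of the 10 release genes, 8 lay among the longest 25%, the exceptions being Rop and comt. Among those long loci 5.62% of features were called higher, and 19.0% had all pellets above all supernatants. The part of neuronal origin and of locus length in the Syt1, Rim and shi values was not tested.

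Scaling set the direction of several members. Without it, the median log2 difference over all features was 0.87, and 4526 features were called higher and 40 lower, against 174 and 156 with scaling. Then 8 of the 10 members were called higher, beside 51.9% of all features, and cpx, n-syb and Rop turned from below 0 to above it (0.96, 0.85 and 0.75). Relative to that median, Syt1 stood at 1.87, Rim at 1.46 and shi at 1.0, while cpx stood at 0.083, n-syb at -0.022 and Rop at -0.12. Scaling divides each library by a single factor, so the order relative to the median had to stay close to that after scaling.

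**Figure D3:**
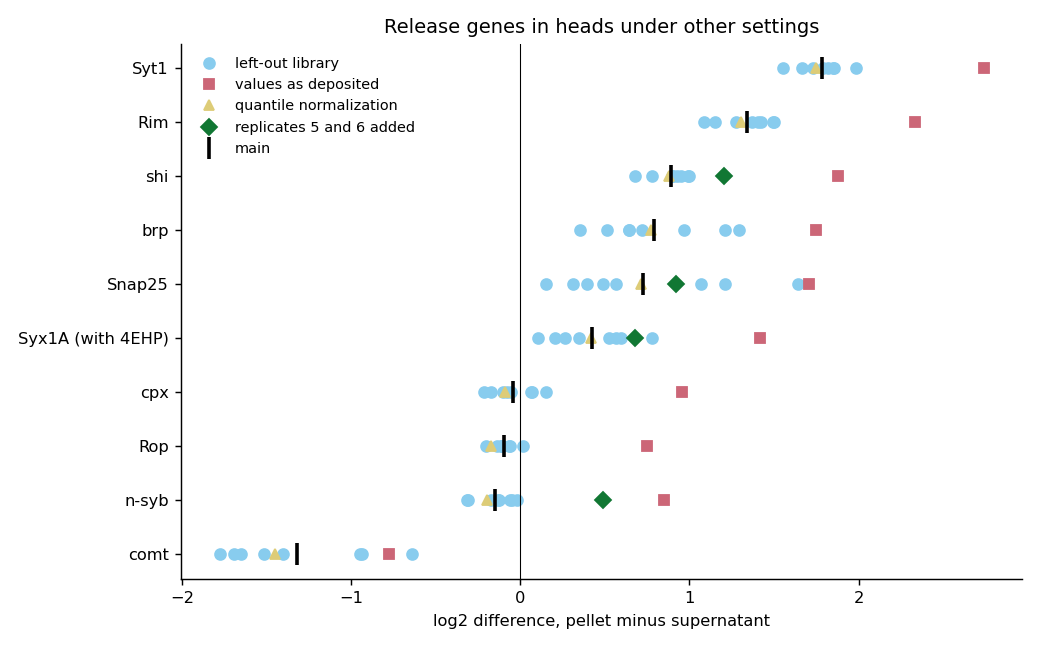
Log2 difference between pellet and supernatant (horizontal axis) of the 10 release genes after scaling (black bars), with each of the 8 libraries left out (light blue), with quantile normalization, with values as deposited and, for the 4 genes found in all 12 libraries, with replicates 5 and 6 added. Syt1 stays between 1.56 and 1.99 with a library left out, while Snap25 runs from 0.15 to 1.64 and comt from -1.78 to -0.64.

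FPKM is given per length, so the named entries within the heads were ordered by level. The entries were of unlike kinds, so this order may not be that of the genes. Rop was a FlyBase entry and not an assembled one in every library, and Syx1A was summed with 4EHP. Unnamed loci inside Syt1, Syx1A, Snap25, brp, Rim, cpx and shi were listed apart from the named entries, some of them at a higher FPKM. In supernatant 5 the matched Rop locus held 30.2 FPKM, above Snap25 at 23.3 FPKM. In supernatant 6 Rop was below Snap25, at 6.78 against 56.5 FPKM. In supernatants the order of mean scaled FPKM was n-syb (158), Syx1A with 4EHP (123), cpx (110), Snap25 (56.5), Rim (47.5), shi (24.7), brp (13.3), Syt1 (9.11), comt (3.59) and Rop (2.93). Only Rim and shi, among neighbours in that order, had ranges that did not overlap. In pellets Rim stood above cpx, at 123 against 107, and Syt1 stood above brp, at 31.2 against 23.5, with overlapping ranges. The break in the pellet order came between brp and Rop, whose ranges lay apart, and again between Rop (2.67 ± 0.26, SD, n = 4) and comt. Within single libraries n-syb exceeded 95.0% to 97% of all features and Rop 51.4% to 60.8%. Syt1 exceeded 65.1% to 77.8% of features in supernatants and 85.2% to 89.1% in pellets.

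The profiles most like 2 of the members were taken by the distance between log2 profiles over the 8 head libraries, centred on each gene's mean. For Syt1, the member with the smallest p, these were CG18317 (distance 0.90), Not1 (0.95), the scaffold gene of the CCR4-NOT deadenylase complex, and peb (0.95), a zinc-finger transcription factor gene, beside a median distance of 3.06 over all features. All of these were called higher in the pellet, by log2 differences of 1.33, 1.61 and 1.79. Differences near that of Syt1 follow from how they were picked, by closeness over the same libraries, and are no separate result. For n-syb, the member with the highest mean, they were CG11658 (0.31), CG31921 (0.36) and CG11459 (0.41), beside a median of 1.59. The 8 libraries are all that these distances rest on.

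Replicates 5 and 6 carried no gene names, and members were looked for by at least 50% reciprocal overlap of loci. In replicate 5 this gave values in both fractions for 6 of the 10 members, and in replicate 6 for 4. For shi the unnamed locus held 64.2 FPKM (supernatant) and 180 FPKM (pellet) in replicate 5, and 40.0 and 118 FPKM in replicate 6. After scaling over 12 libraries these are log2 differences of 1.62 and 1.46, with the sign seen in replicates 1 to 4. Several loci overlapped shi: supernatant 5 listed a 173 bp locus at 491 FPKM and supernatant 6 a 214 bp locus at 211 FPKM. The pellets of these replicates listed none so short. In replicate 5 the matched locus spanned 7962 bp in the pellet and 10803 bp in the supernatant. The part of these unlike loci in the direction was not tested. At 80% overlap shi was matched in neither replicate. Snap25 was higher in both pellets too, by 0.92 and 1.11. The locus of n-syb was also higher in these pellets (log2 differences 1.07 and 1.88), opposite in sign to its estimate in replicates 1 to 4, and whether the library series differ was not tested. No direction was read for Syx1A with 4EHP, whose log2 differences were 4.18 in replicate 5 and -2.29 in replicate 6. Several loci overlapped its entry too. In replicate 6 the best match held 51.2 FPKM in the supernatant and 11.3 FPKM in the pellet, while another pellet locus of 34236 bp held 258 FPKM. Rop and comt, found in replicate 5, had supernatant levels of 30.2 and 33 FPKM and pellet levels of 30.3 and 42.3 FPKM. In supernatant 6 the matched Rop locus held 6.78 FPKM. The named Rop entries of replicates 1 to 4 held 1.5 to 4.11 FPKM as deposited, and the named comt entries 0 to 7.33. The part of locus assembly in these levels was not tested, and brp and Rim were found in neither replicate.

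In S2 cells the release genes split into 4 with a level at or above a mean of 1 and 6 that were nearly silent. The 4 were Rop, Syx1A, shi and brp, and all 4 had higher values in both Orb2B libraries than in either background library, which held for 36.6% of the 7069 tested genes. Of these, 2 were called higher, shi and brp, against 17.0% of all tested genes, and none was called lower, against 19.8%. The other 6 genes, Syt1, Snap25, n-syb, cpx, Rim and comt, stayed at or below 0.46 RPKM in all 4 libraries. In bulk cultures, fewer cells of a type and less RNA per cell cannot be told apart.

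**Figure D4:**
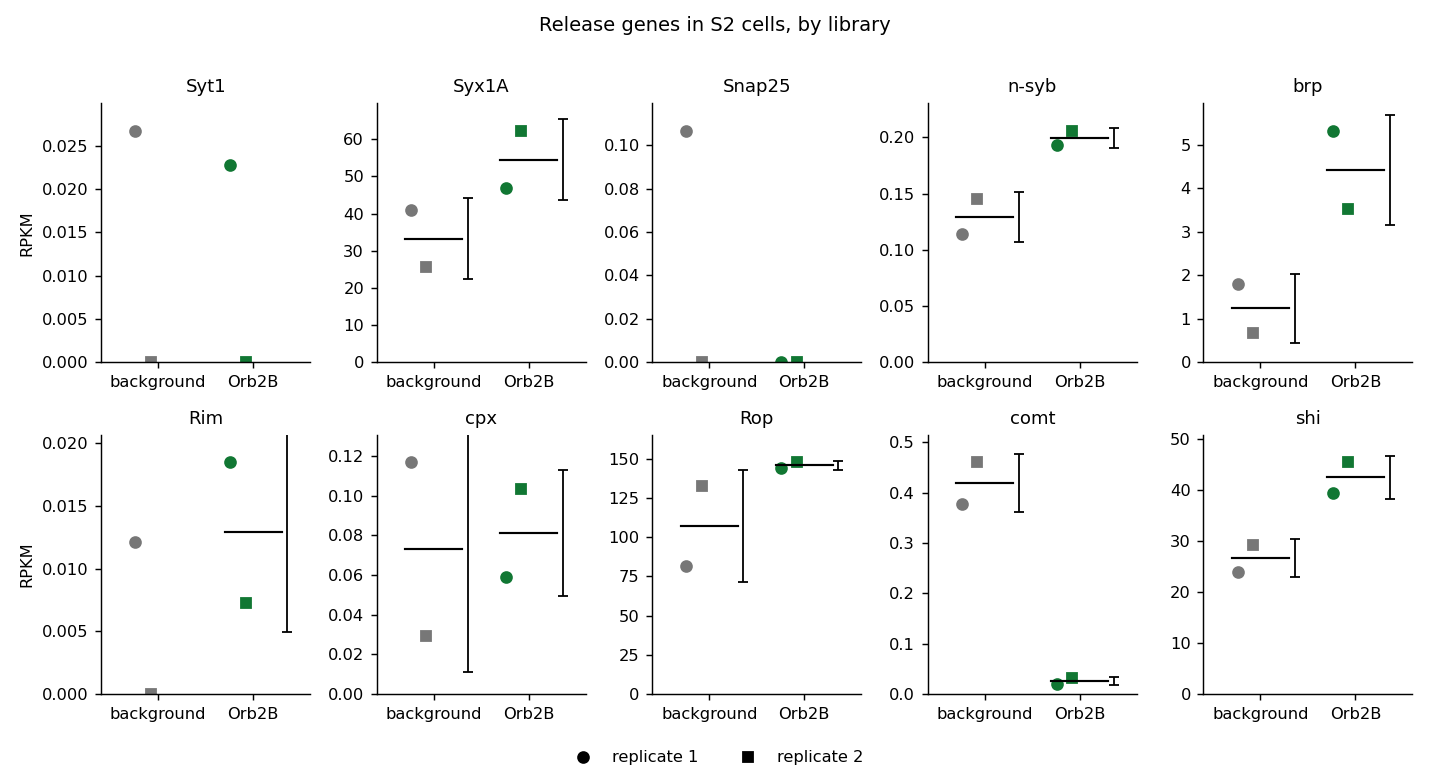
RPKM as deposited (vertical axes, linear from 0, each panel on its own scale) of the 10 release genes in 2 background and 2 Orb2B libraries of S2 cells; symbols are replicates, black lines group means and bars the SD, both left out where a library is at 0. Rop, Syx1A, shi and brp are higher in both Orb2B libraries, and the other genes lie under 0.5 RPKM.

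Rop was the most abundant member in S2 cells, at 81.9 and 133 RPKM in background libraries and at 144 and 148 RPKM in Orb2B libraries. It exceeded 93.5% to 96.0% of all genes there. The log2 difference was 0.54 (SE 0.21, limma adjusted p = 0.0829). Background replicate 1 stood lowest: with background replicate 2 left out the difference was 0.79 (adjusted p = 0.0113), and with background replicate 1 left out it was 0.27 (adjusted p = 0.174).

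Syx1A was at 41.0 and 25.5 RPKM in background cells and at 46.7 and 62.2 in Orb2B cells, a log2 difference of 0.78 (SE 0.28, limma adjusted p = 0.0599). It was called without background replicate 1 (log2 difference 1.19, adjusted p = 0.00370) and with values as deposited (0.73, adjusted p = 0.0414). Without background replicate 2 the difference was 0.35 (adjusted p = 0.137). Its neighbour 4EHP, at 15.9 and 11.7 against 17.3 and 20.7 RPKM, was not called (log2 difference 0.51, adjusted p = 0.118).

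The shi transcript was at 24.0 and 29.3 RPKM in background libraries and at 39.5 and 45.5 in Orb2B libraries, a narrow spread within each group (log2 difference 0.72, SE 0.17, limma adjusted p = 0.0127). That call was lost without either Orb2B library, at 0.77 (adjusted p = 0.107) without replicate 1 and 0.71 (adjusted p = 0.112) without replicate 2, where the lone library is taken to vary like the other group. Brp was low but moved most, from 1.80 and 0.684 RPKM to 5.31 and 3.53 RPKM (log2 difference 1.59, SE 0.39, limma adjusted p = 0.0168). With a single library left out it ranged from 1.04, without background replicate 2, to 2.12, without background replicate 1, and stayed called, but with no minimum level its adjusted p was 0.0648.

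Among the genes under the minimum, Snap25 was at 0.107 RPKM in background replicate 1 and listed at 0 in the other 3 libraries. Syt1 was listed at 0 in replicate 2 of both groups and reached 0.0267 RPKM. The gene comt was at 0.378 and 0.460 RPKM in background cells and at 0.0196 and 0.0307 RPKM in Orb2B cells. With no minimum level comt was called lower (log2 difference -0.79, adjusted p = 0.00901), while the read depth behind such values is unknown. n-syb was at 0.114 and 0.145 against 0.193 and 0.206 RPKM, and Syb, the broadly used synaptobrevin, was at 238 and 202 against 290 and 314 RPKM (log2 difference 0.52, limma adjusted p = 0.0785).

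Other genes of the vesicle cycle were read from 4 lists. In heads 0 features of these lists were called in limma without the block, while 11 of 70 were above and 2 below with an unadjusted p under 0.05, beside 11.6% and 11.1% of all tested features. Of 26 tested genes of other SNAREs and their Sec1/Munc18 partners, 16 had estimates above 0 (median log2 difference 0.093), beside 48.6% of all features. The highest level was that of a sum over CkIalpha and tomosyn, a syntaxin-binding inhibitor (1645 ± 586 and 3377 ± 1648 scaled FPKM, SD, n = 4 each, adjusted p = 0.191). The part of tomosyn in it is not known. Sec22, an ER-to-Golgi SNARE, came next (103 ± 56 and 104 ± 5.46, adjusted p = 0.814). Of 11 active zone and priming features 10 were above 0 (median 0.69). Among them were CASK, a presynaptic scaffold (92.4 ± 9.60 and 318 ± 291, adjusted p = 0.151), and cac, the presynaptic calcium channel joined with pot (58.8 ± 11.6 and 115 ± 40.1, adjusted p = 0.107).

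Of 14 features for vesicle proteins and transmitter loading, 14 were above 0 (median 0.69). They include Sap47, a vesicle-associated protein (304 ± 142 and 321 ± 44.5, adjusted p = 0.764), and the joint entry of CG14302 with the acetylcholine genes Cha and VAChT (139 ± 27.2 and 430 ± 256, adjusted p = 0.0743). That joint entry and Syn are also among the neuron markers. Of 19 vesicle endocytosis features 9 were above 0 (median -0.0074), with Eps-15, an endocytic scaffold joined with CG16936, at 155 ± 9.14 and 224 ± 15.7 (adjusted p = 0.0552) and Rab5, an early endosome GTPase, at 161 ± 20.6 and 169 ± 27.8 (adjusted p = 0.869). With the replicate block 1 active zone feature, 3 vesicle and loading features and 2 endocytosis features were called higher, and no feature of the SNARE list was. With the block 7.02% of all tested features were called higher, and a difference between the lists and that share was not tested.

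In S2 cells, by contrast, 10 of 27 other SNARE and Sec1/Munc18 genes were called higher and 1 lower, beside 17.0% and 19.8% of all genes. Vti1, a SNARE, went from 6.78 ± 0.34 to 18.7 ± 1.91 scaled RPKM (SD, n = 2 each, log2 difference 1.39, limma adjusted p = 0.00162). Slh, a Sly1-type Sec1/Munc18 protein, went from 22.4 ± 0.26 to 50.2 ± 3.26 (1.14, adjusted p = 0.00209). The autophagosome syntaxin Syx17 went from 7.60 ± 1.92 to 17.6 ± 2.67 (1.18, adjusted p = 0.00731), and was at an adjusted p of 0.0513 without Orb2B replicate 1. Vps33B, another Sec1/Munc18 protein, fell by 1.63 on the log2 scale (3.53 ± 0.12 to 0.802 ± 0.15, adjusted p = 0.00218). Whether the S2 and head counts differ was not tested.

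Endocytic genes were also called in S2 cells, 5 higher and 0 lower of 20 tested, beside 17.0% and 19.8% of all tested genes. At an unadjusted p under 0.05 these counts were 7 and 1. The 5 called entries include both stnA and stnB. The entries stnA and stnB, which encode the stoned proteins from 1 dicistronic transcript, had identical values and count as 1 measurement, 0.370 ± 0.090 and 6.38 ± 0.73 scaled RPKM (log2 difference 2.98, adjusted p = 0.000237). The endophilin gene endoA rose from 9.07 ± 1.13 to 17.7 ± 0.044 (0.94, adjusted p = 0.00773) and Eps-15 from 37.7 ± 7.42 to 66.6 ± 0.38 (0.82, adjusted p = 0.0131). Both calls were lost without Orb2B replicate 1 (adjusted p = 0.0661 and 0.0761) and without Orb2B replicate 2 (0.0554 and 0.0596). Most active zone and transmitter genes were under the minimum, with 3 tested in each list. CASK (16.3 ± 0.045 and 20.4 ± 0.21) and Liprin-alpha (13.6 ± 4.61 and 15.5 ± 0.31), a scaffold that recruits active zone proteins, were not called, at adjusted p of 0.182 and 0.494. Sap47 was called higher (log2 difference 0.70, adjusted p = 0.0217) and Tbh, the octopamine-synthesizing enzyme, lower (-1.02, adjusted p = 0.0151). Sap47 lost its call without Orb2B replicate 1 (adjusted p = 0.209) or 2 (0.127), and Tbh without background replicate 2 (0.0531), Orb2B replicate 1 (0.0509) or Orb2B replicate 2 (0.0591). Blood cell markers moved in these libraries as well: 3 of 5 tested were called lower, beside 19.8% of all tested genes. Their summed level was 215 to 224 scaled RPKM in background and 111 to 158 in Orb2B libraries. Their part in the values above was not tested.

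**Figure D5:**
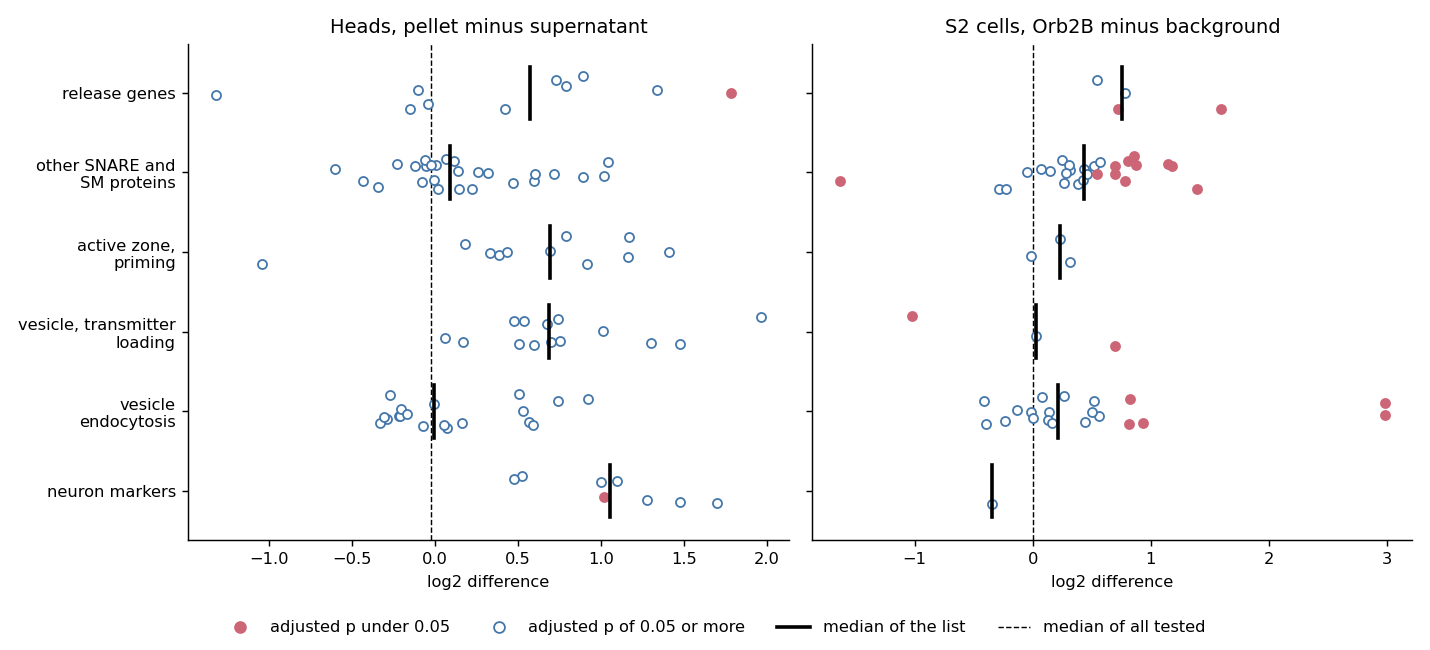
Log2 difference (horizontal axis) of each tested feature of the release genes, 4 other lists and the neuron markers, in heads (left) and S2 cells (right); filled points have an adjusted p under 0.05, short bars are list medians and the dashed line is the median of all tested features. In heads the filled points are Syt1 and elav; in S2 cells 2 release genes, 11 other SNARE or Sec1/Munc18 genes, 2 vesicle or loading genes and 5 endocytosis entries are filled.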

How the data were processed

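RNA was sequenced from S2 cells and from head b-isox fractions. The S2 files hold RPKM per gene as the authors deposited them. Novoalign, cutadapt, Bowtie and CASAVA (version 1.9.1) stand in the submitters' processing notes for these. The head files hold FPKM, deposited by the authors for genes and for assembled loci with lower and upper bounds whose level is not stated per the file headers. Cufflinks, TopHat and CASAVA (1.9.1) stand in the notes for these. Both name build dm3. Strand and read counts are not given in the sources used here. Of 43 samples in the series, 16 were used; crosslinking libraries were not analysed here.

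Head genes joined in any library were merged and their FPKM summed, giving 14447 features, 949 of them with several genes among the 14410 with a value everywhere. Each library was divided by the median ratio to the geometric mean. A scaled mean of 1 or more was required, and limma (version 3.58.1 in R 4.3.3, variance trend, two-sided) was run on log2(scaled value + 0.5), which understates changes of low genes. An adjusted p (Benjamini-Hochberg over all features) under 0.05 was called. The procedure was tested on simulated data.

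The 10 members and all lists were chosen with earlier results of these data known. Other genes were named by rule: from each list up to 4 called genes with the smallest p, or the 2 with the highest mean, and the 3 nearest profiles of 2 members. In heads same-numbered libraries deviated together (correlations across features of 0.168, 0.193, 0.325 and 0.199 for replicates 1 to 4), so the numbers were taken as pairs, from the data alone. Between different numbers the highest was 0.143. The main fit did not use these pairs, and the replicate block, which did, is given as an alternative. Alternatives were quantile normalization, unscaled values, the replicate block, pseudocounts of 0.1 and 1, a minimum of 5 or none, a fit without the trend, each library left out, exact 0 as missing, features of 1 gene, and replicates 5 and 6 added by 50% or, for matching alone, 80% overlap. Tables and figures were made in Python 3.11.15 with matplotlib 3.10.9, numpy 2.4.6 and pandas 2.3.3.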

Additional observations from a re-analysis of the deposited data

Results flagged for a closer look

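In heads 20 groups of 4 libraries (10 genes in 2 fractions) were examined for a library far from the rest, and chance alone flags about 1 group in 20. Supernatant 3 stood far above the other supernatants in 3 genes. For Snap25 it was at 183 scaled FPKM, with the others at 11.1 to 19.2. For brp it was at 30.7, with the others at 5.78 to 9.0, and for comt at 10.8, with the others at 0.808 to 1.82. Their log2 differences without supernatant 3 were 1.64 for Snap25, 1.29 for brp and -0.64 for comt, and none was called. Without pellet 3 the log2 difference of brp was 0.35 (adjusted p = 0.808). The short unnamed locus at the low-coordinate end of Syt1 lies outside the tested features. It was at 1387 FPKM in pellet 3 and 1334 FPKM in pellet 4, which are 1091 and 1050 after scaling, above the 416 to 955 of the supernatants. In replicates 5 and 6 a short locus there was listed in the pellets, at 1164 and 937 FPKM as deposited. The supernatants had only longer loci over the same segment, of 9945 bp at 26.8 FPKM and of 7364 bp at 44.4 FPKM. Pellet 5 had a longer locus over it too, of 17654 bp at 38.4 FPKM, so the short and long loci are not like measures.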

How the results depend on the processing

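Syt1 kept its direction and its call under all 18 alternatives that gave it a value. Replicates 5 and 6 added could not give one, since it was not matched in all 12 libraries. Of the 330 features called in heads, the replicate block made 1268 and values as deposited 4566; with a library left out there were 141 to 308. Of the members called, 1 in the main setting, the counts were 2 with a minimum mean of 5, 8 as deposited and 2 with the replicate block; with a library left out there was 1 each time. The S2 count of 2604 ranged from 1241 to 3350 with a library left out, and the S2 members called, 2, from 1 to 3; a minimum mean of 5 gave 1. The S2 numbers pair only 2 libraries a group, their deviations correlated at 0.05, and they were not taken as pairs; the replicate block called 4 members and 3036 genes, with 20.2% of all genes called higher. In heads the block changed the call of Rim among the members and no other.

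Reversed estimates, none of them called in the main setting, were as follows. Values as deposited turned Rop (0.75), cpx (0.96) and n-syb (0.85). With a library left out, Rop ranged from -0.20 to 0.019 (above 0 without supernatant 2) and cpx from -0.22 to 0.15 (above 0 without supernatant 3, pellet 1 or pellet 2). The n-syb estimate was 0.49 with replicates 5 and 6 added. With a library left out, Rab5 ranged from -0.026 (without pellet 1) to 0.14, Sec22 from -0.012 (without supernatant 4) to 0.47, and Liprin-alpha in S2 cells from -0.12 (without background replicate 1) to 0.56. The cause was not tested. An overlap of 80% left 4 members in replicate 5 and 3 in replicate 6, without shi in either. Rop and comt were not tested at a minimum of 5. What depth limits cannot be stated, as no counts were given.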
